A study of Mus musculus with 24 samples.

Results

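The erythroid genes described here are the 4 adult hemoglobin genes Hba-a1, Hba-a2, Hbb-bs and Hbb-bt, and Alas2, the erythroid form of the enzyme that starts heme synthesis. They were chosen by name as blood genes with their counts in these same libraries known, and they are 5 of the 33000 genes in the count table. Because the cDNA amount, library set and genotype contrasts entered that choice, their values in these contrasts are given as a description, and the number of members called by each fit over all genes stands only beside the share of all genes called. All 5 had counts in every library, and all 5 passed the filter on low counts in the 3 comparisons.

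Frontal cortex RNA came from C57BL/6 mice aged 3 months, of which 3 were WT and 3 were GFAP-IL6 homozygotes. In GFAP-IL6 mice a transgene drives the cytokine gene Il6 from the promoter of Gfap, an astrocyte gene, so that the extra cytokine is made by astrocytes. Each mouse gave 4 libraries, for which 2 ng or 1 ng of amplified cDNA was tagmented, that is, cut and joined to adapters by a transposase, and in sets named A and B, whose letters the labels do not explain. The 24 libraries were made with 3'Pool-seq, which counts the 3' ends of polyadenylated transcripts. Killing was by cervical dislocation and decapitation, and no perfusion of the vessels is described. In this protocol, barcoded cDNA of several samples is combined before amplification and tagmentation. The labels do not say which libraries shared a pool, so the 6 mice of a kind of library may have shared a single tagmentation reaction, and the spread between their paired differences then does not include the spread between reactions.

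Library totals ran from 1524165 to 12256374 counts, and the 4 libraries of a mouse summed to between 7852743 and 37582644. Il6 was listed at 0 to 2 counts per WT library and at 3 to 51 counts per GFAP-IL6 library. All 8 cortical neuron markers passed the filter on low counts, and their summed level was 4289 to 4939 CPM (counts scaled to 1000000 per library) in WT mice and 4113 to 4750 CPM in GFAP-IL6 mice. The largest part of this sum was Snap25, at a mean of 3587 CPM in WT mice and 3539 CPM in GFAP-IL6 mice.

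Hemoglobin carries oxygen in red blood cells as a tetramer of alpha and beta chains, each holding a heme group. Mature mammalian red cells have no nucleus, and the young red cells released to the blood, the reticulocytes, still hold globin mRNA, so a tissue taken with its blood gives globin counts. Globin mRNA has also been described at low level in some neurons and glia. In C57BL/6 mice the adult beta chains come from Hbb-bs and Hbb-bt, and the adult alpha chains from the duplicated Hba-a1 and Hba-a2.

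The alpha pair lies on chromosome 11 of mm10 (GRCm38), with Hba-a1 at chr11:32283511-32284465 and Hba-a2 at chr11:32296489-32297298, both on the plus strand. The beta pair lies on the minus strand of chromosome 7, with Hbb-bs at chr7:103826534-103828096 and Hbb-bt at chr7:103812524-103813996. Each of these 4 genes has 3 exons in its main transcript. Alas2, with 11 exons, lies at chrX:150547375-150570638 on the plus strand. The coding sequences of a pair are nearly the same, which bears on every count below because only uniquely aligned reads were counted. In GENCODE vM21 the 426 coding bases of Hba-a1 and Hba-a2, without the stop codon, differed at 1 position, written C381T from Hba-a1 to Hba-a2 and counted from the first base of the start codon. The 441 coding bases of Hbb-bs and Hbb-bt also differed at 1 position, written C417T from Hbb-bs to Hbb-bt. Both positions lie in the last exon. They are written here in the direction of the transcript, with the differing base in capitals, since they are the coding bases that let a read be given to a single gene of a pair.
Hba-a1 (chr11:32284329-32284357): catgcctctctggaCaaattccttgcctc
Hba-a2 (chr11:32297146-32297174): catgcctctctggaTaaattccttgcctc
Hbb-bs (chr7:103826678-103826706): gtggctggagtggcCgctgccctggctca
Hbb-bt (chr7:103812669-103812697): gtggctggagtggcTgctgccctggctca

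The alpha position lies 123 bases before the annotated 3' end of Hba-a1 and 139 before that of Hba-a2, and the 74 bases annotated after the stop codon of Hba-a1 were identical to the first 74 of Hba-a2. Of the 231 windows of 70 bases, the read length, in the last 300 bases of the transcript, 161 (69.7%) of Hba-a1 also occurred in the Hba-a2 transcript, and 145 (62.8%) of Hba-a2 occurred in Hba-a1. For Hbb-bs, 72 of 231 windows (31.2%) occurred in Hbb-bt, and for Hbb-bt 71 of 231 (30.7%) occurred in Hbb-bs. A larger part of the alpha windows than of the beta windows was therefore shared within the pair, and the alpha counts and the split within each pair are uncertain to that extent. These windows were compared with the paralog only and not with the whole genome.

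Among the members Hbb-bs had the highest level. Levels are given in CPM scaled by TMM, a scaling that balances the bulk of genes between libraries, and were not divided by length because a 3' library gives each transcript a single end. Over the 24 libraries Hbb-bs ran from 139 to 775 CPM with a median of 397. Hba-a1 ran from 64.1 to 299 CPM with a median of 167, and Hba-a2 from 46.8 to 232 CPM with a median of 131. Hbb-bt ran from 21.3 to 122 CPM with a median of 57.2. Alas2 was far lower, at 1.95 to 9.78 CPM with a median of 5.01, and rested on 4 to 73 counts per library. The 4 globin genes together took between 0.0290% and 0.136% of a library's counts.

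**Figure D1:**
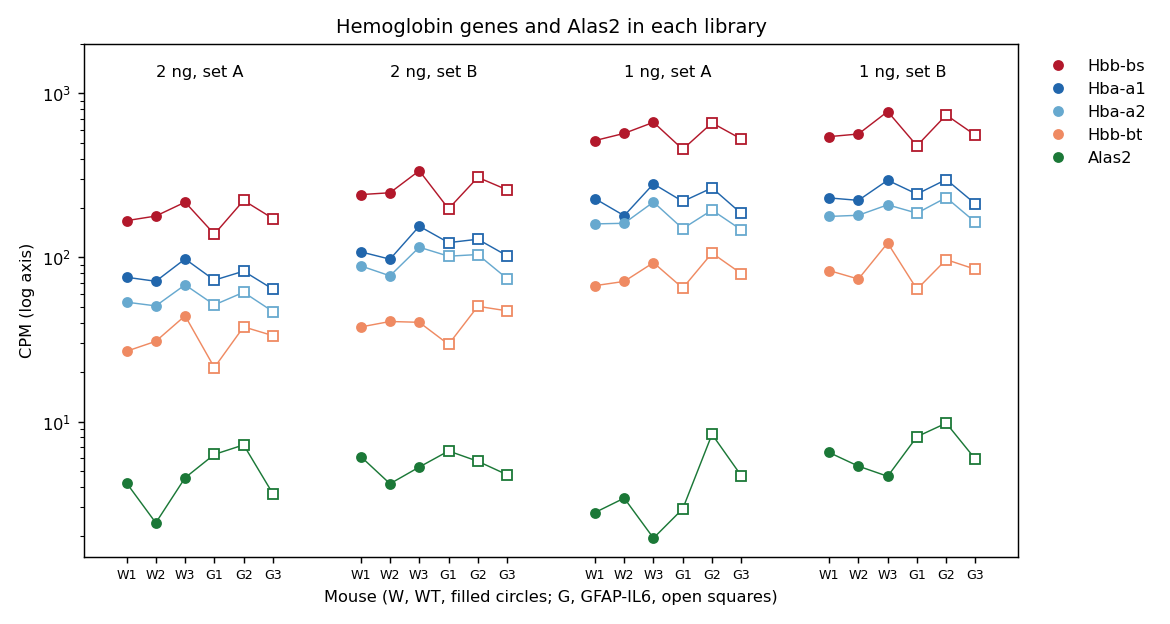
Level of each gene (CPM, log axis) in the 24 libraries, grouped by cDNA amount and set, with WT mice as filled circles and GFAP-IL6 mice as open squares. The 4 globin genes sit higher in the 1 ng libraries than in the 2 ng libraries, and each keeps a similar profile over the 6 mice, while Alas2 varies from 1.95 to 9.78 CPM with no such step.

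Of the 3 comparisons, that between cDNA amounts gave the largest differences of the globin genes. All 4 were higher in the libraries made with 1 ng, by 2.25-fold for Hbb-bt to 2.64-fold for Hbb-bs, and the difference had this sign in all 6 mice and in both sets. Alas2, the heme synthesis enzyme of the same cells, lay above its 2 ng value with 1 ng for 3 of the 6 mice in set A and for 5 of the 6 in set B.

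Hbb-bs, the major beta chain gene of these mice, was at 168, 179 and 217 CPM in the 2 ng libraries of set A from WT mice 1, 2 and 3, and at 139, 223 and 173 CPM in those from GFAP-IL6 mice 1, 2 and 3. In the 1 ng libraries of set A it was at 516, 570 and 666 CPM in the WT mice and at 456, 661 and 527 CPM in the GFAP-IL6 mice. The lowest 1 ng value lay above the highest 2 ng value, so the amounts did not overlap. In set B, Hbb-bs was at 242, 248 and 338 CPM in the WT mice and 198, 308 and 258 CPM in the GFAP-IL6 mice with 2 ng. With 1 ng in set B it was at 545, 565 and 775 CPM in the WT mice and 479, 738 and 555 CPM in the GFAP-IL6 mice. The amounts again did not overlap. Over both sets the 12 libraries with 2 ng had a median of 220 CPM and a highest value of 338, and the 12 with 1 ng had a median of 560 and a lowest value of 456.

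The alpha genes moved in the same way. Hba-a1 had a median of 97.7 CPM (64.1 to 155) in the 12 libraries with 2 ng and of 229 CPM (180 to 299) in the 12 with 1 ng. Hba-a2 had medians of 71.2 CPM (46.8 to 115) and 179 CPM (147 to 232). For both alpha genes every 1 ng library lay above every 2 ng library. Hbb-bt, the minor beta gene, had medians of 37.7 CPM (21.3 to 50.4) with 2 ng and 81.5 CPM (64.0 to 122) with 1 ng, also without overlap. How many of all genes separated the amounts as these globin genes did was not counted. The 12 libraries of an amount came from 6 mice and are not independent. Alas2 had medians of 5.01 CPM (2.41 to 7.20) with 2 ng and 5.01 CPM (1.95 to 9.78) with 1 ng, and its ranges overlapped throughout.

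Fitted over both sets with the mouse as a block, the log2 difference of 2 ng against 1 ng was -1.40 ± 0.02 (SE, 6 mice) for Hbb-bs, -1.34 ± 0.03 for Hba-a2, -1.31 ± 0.03 for Hba-a1 and -1.17 ± 0.05 for Hbb-bt. For Alas2 it was -0.22 ± 0.15. Of all 14261 genes tested in this comparison, 31.2% were called (adjusted p under 0.05, quasi-likelihood fit of edgeR), and so were 4 of the 5 members, all lower with 2 ng. Since this contrast was used to choose the genes, the count is given beside the background only. In the ordering of all genes tested, 9 genes had a more negative log2 difference than Hbb-bs, 11 than Hba-a2, 12 than Hba-a1 and 24 than Hbb-bt. Among the 2966 genes with an average level at or above that of Hbb-bt, none had a more negative log2 difference than Hbb-bs. For Alas2, 2163 of the 14261 genes had a more negative log2 difference.

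Genes of similar length had, on the whole, smaller differences between amounts than the globin genes. The table gives them lengths of 554 nt (Hba-a2), 699 nt (Hba-a1), 703 nt (Hbb-bt) and 778 nt (Hbb-bs), against 2037 nt for Alas2. The 391 tested genes with lengths from 500 to under 800 nt had a median log2 difference of -0.05, with 5% of them below -0.67, and 2 of these 391 had a more negative value than Hbb-bs. Genes under 500 nt (164 genes) had a median of -0.28, and the other length classes had medians between -0.05 and 0.03. Over all genes tested, the log2 difference had a Pearson correlation of -0.005 with the log2 of the length (14261 genes). With the GC content of the last 300 bases of the longest coding transcript the correlation was -0.12 (13395 genes), and the 3' ends of the members held 48.7% GC in Hbb-bt, 49.7% in Hbb-bs, 53.3% in Alas2, 58.7% in Hba-a2 and 60% in Hba-a1. For set B against set A, the correlation was 0.33 with this GC content (13557 genes) and -0.06 with the log2 of the length (14486 genes). Genes are not independent replicates, and these correlations are over values from the same libraries.

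**Figure D2:**
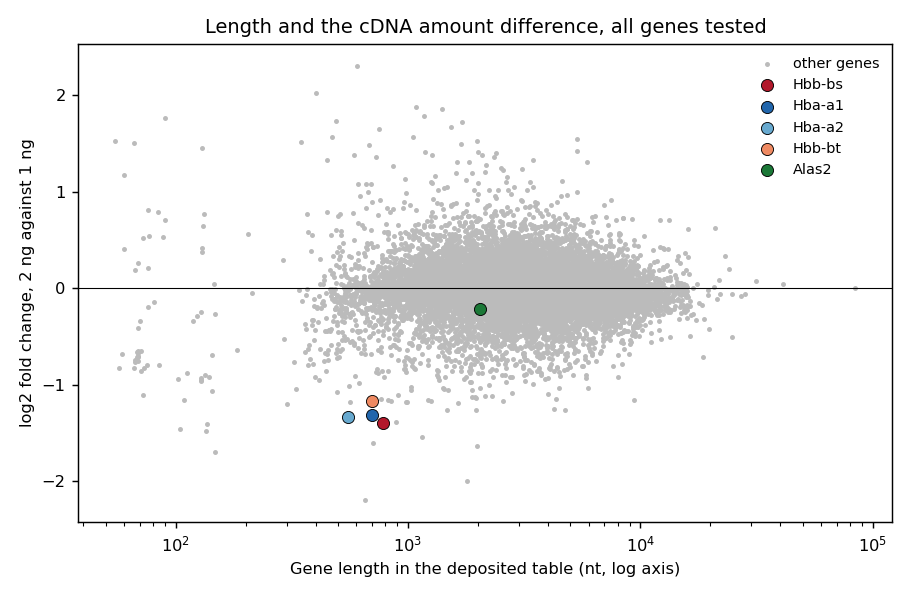
Log2 fold change of 2 ng against 1 ng libraries for each gene tested (vertical axis) against its length in the count table (nt, log axis). The 4 globin genes lie between -1.40 and -1.17 at lengths of 554 to 778 nt, below the bulk of genes of their length, whose median is -0.05, and Alas2 lies at -0.22.

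The difference between amounts was larger in set A than in set B for the 4 globin genes summed. The summed globins were 3.01-fold higher with 1 ng than with 2 ng in set A (log2 difference -1.59 ± 0.03, SD, n = 6 mice) and 2.19-fold higher in set B (-1.13 ± 0.05). The set A value was the more negative in 6 of 6 mice (set A minus set B, -0.46 ± 0.06 on the log2 scale). For Hbb-bs alone the difference between sets had this sign in 6 of 6 mice, and also for Hba-a1 and Hba-a2. For Hbb-bt it had this sign in 5 of 6 mice, with a mean difference of -0.24 ± 0.40 that lay within its spread.

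Seen from the sets, the same 4 libraries of a mouse showed a step in the 2 ng libraries and a small one in the 1 ng libraries. The summed globins with 2 ng were 1.49-fold higher in set B than in set A (log2 difference 0.58 ± 0.06, SD, n = 6 mice), with a range of 0.48 to 0.67. With 1 ng they were 1.09-fold higher in set B (0.12 ± 0.03), with a range of 0.09 to 0.16. The sign was the same in 6 of 6 mice at both amounts.

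Fitted over both amounts, the log2 difference of set B against set A was 0.38 ± 0.04 (SE, 6 mice) for Hba-a2, 0.34 ± 0.03 for Hba-a1, 0.28 ± 0.02 for Hbb-bs and 0.25 ± 0.05 for Hbb-bt. For Alas2 it was 0.51 ± 0.18. The same fit called 5 of the 5 members, and 21.7% of the 14486 genes tested. As this contrast was also used to choose the genes, nothing is read from that count. In the ordering of all genes tested, 705 had a larger positive difference than Hba-a2 and 1470 than Hbb-bt. Among the 2932 genes with an average level at or above that of Hbb-bt, 25 had a larger positive difference than Hba-a2, 35 than Hba-a1, 49 than Hbb-bs and 72 than Hbb-bt. The paired values of Alas2 were spread widely, from -0.05 to 0.88 over the 6 mice after averaging the amounts. Alas2 was not called without WT mouse 1 (0.44), WT mouse 2 (0.48), GFAP-IL6 mouse 1 (0.48) or GFAP-IL6 mouse 3 (0.56), nor by DESeq2 (0.54), nor with the 2 ng (0.24) or the 1 ng libraries alone (0.68). Hbb-bt was not called with the 1 ng libraries alone (0.10).

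**Figure D3:**
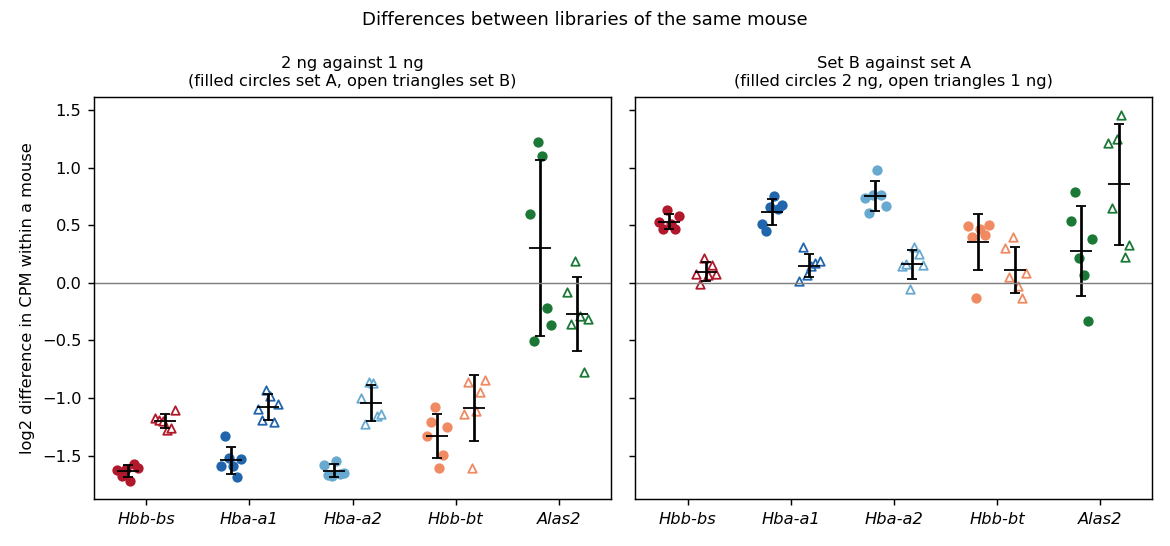
Log2 difference in CPM between libraries of the same mouse (points, 6 mice; line and bar, mean ± SD), for 2 ng against 1 ng within each set (left) and for set B against set A within each amount (right). The globin genes lie between -1.72 and -0.84 on the left, and on the right their means lie between 0.36 and 0.75 with 2 ng and between 0.10 and 0.16 with 1 ng.

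Within a kind of library (an amount and a set), the mice kept their order closely. The highest summed globin level was in WT mouse 3 and the lowest in GFAP-IL6 mouse 1 in each of the 4 kinds. With 2 ng in set A the summed globins ran from 284 to 427 CPM over the 6 mice, and with 1 ng in set A from 890 to 1258 CPM. In set B they ran from 452 to 648 CPM with 2 ng and from 973 to 1402 CPM with 1 ng. The SD of the log2 level over the 4 libraries of a mouse was 0.82 for the summed globins. Once the mean of each kind of library was taken out, it was 0.05 for Hbb-bs, against a median of 0.06 over 388 genes whose average log2 level lay within 0.5 of that of Hbb-bs, and 0.15 for Hbb-bt, against 0.13 over 2091 such genes. Of the 14621 genes tested between genotypes, 12 had a larger SD over the libraries of a mouse than Hbb-bs (0.85) and 48 than Hbb-bt (0.71), whereas for Alas2 (0.41) 3627 genes did. The SD between mouse means within a genotype was 0.27 for Hbb-bs and 0.22 for Hba-a2, larger than that of 83.1% and 71.4% of genes.

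The level per mouse did not separate the genotypes. The 4 libraries of each mouse were summed for this comparison, so that the mouse is the replicate. None of the 4 globin genes differed between GFAP-IL6 and WT mice by more than the spread between mice, and the groups overlapped for all 5 members. In bulk tissue, fewer blood cells and less globin mRNA per cell cannot be told apart.

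Hbb-bs was at 392, 416 and 551 CPM in WT mice 1, 2 and 3, and at 341, 514 and 401 CPM in GFAP-IL6 mice 1, 2 and 3. Its lowest mouse was a GFAP-IL6 mouse and its highest a WT mouse, with the other 4 interleaved. The log2 difference of GFAP-IL6 against WT was -0.11 ± 0.14 (SE). Hba-a1 was at 171, 153 and 225 CPM in the WT mice and at 175, 207 and 149 CPM in the GFAP-IL6 mice (-0.05 ± 0.14). Hba-a2 was at 128, 126 and 166 CPM in the WT mice and at 130, 158 and 115 CPM in the GFAP-IL6 mice (-0.06 ± 0.12). The alpha genes ranked the 6 mice in the same order, from GFAP-IL6 mouse 3 to WT mouse 3. Hbb-bt was at 57.5, 56.9 and 83.1 CPM in the WT mice and at 47.8, 76.4 and 64.1 CPM in the GFAP-IL6 mice (-0.04 ± 0.16).

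Summed over the 4 globin genes, the level was 842 ± 159 CPM in WT mice and 793 ± 142 CPM in GFAP-IL6 mice (SD, n = 3 each). The highest mouse was 1.48-fold above the lowest. The sign of the genotype difference turned with the mice included: the log2 difference was -0.085 over all 6 mice, 0.065 without WT mouse 3 and 0.0043 without GFAP-IL6 mouse 1.

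Alas2 was at 5.0, 3.99 and 4.04 CPM in WT mice 1, 2 and 3, and at 6.09, 8.0 and 4.82 CPM in GFAP-IL6 mice 1, 2 and 3. The highest WT mouse lay above the lowest GFAP-IL6 mouse. The means were 4.35 ± 0.57 CPM and 6.3 ± 1.6 CPM (SD, n = 3 each), and the fitted log2 difference was 0.51 ± 0.23 (SE). It was positive under every setting tried, from 0.08 with the 2 ng libraries of set B alone to 0.95 with the 1 ng libraries of set A alone. The counts behind it were low, from 31 in WT mouse 3 to 186 in GFAP-IL6 mouse 3. None of the 5 members was called between genotypes, where 1.8% of the 14621 genes tested were.

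**Figure D4:**
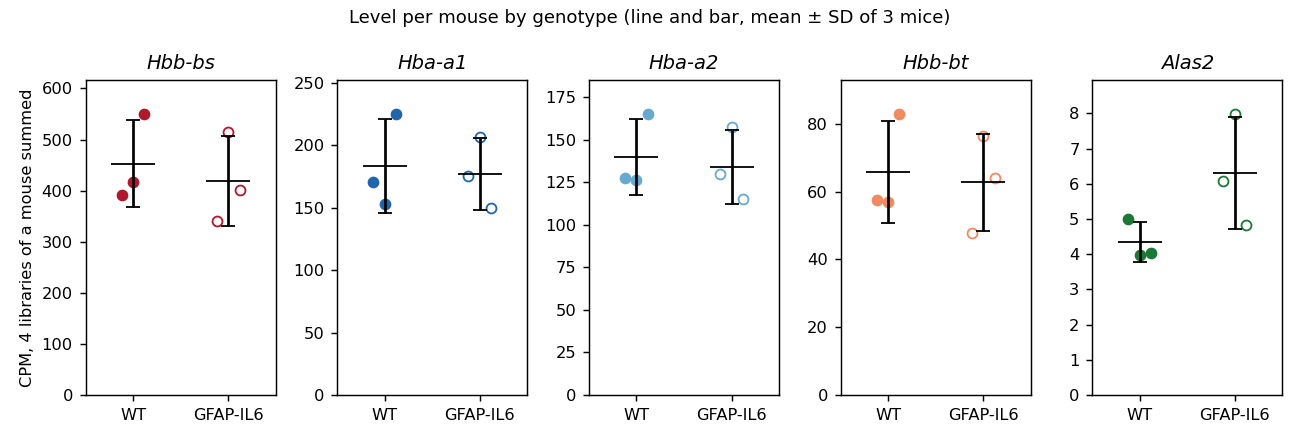
Level of each gene per mouse (CPM, the 4 libraries of a mouse summed), by genotype, with the mean ± SD of 3 mice; each panel has its own axis, which starts at 0. The groups overlap in all 5 panels, and the Alas2 means are 4.35 CPM in WT and 6.30 CPM in GFAP-IL6 mice.

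Shares within the globin families do not depend on how a library is scaled. Hba-a1 took 56.7% ± 1.0 (SD, n = 6 mice) of the alpha counts, with a range of 54.8% to 57.7%. Hbb-bs took 87.2% ± 0.6 of the beta counts, with a range of 86.2% to 88.0%. Neither share differed between genotypes by more than the spread between mice: Hba-a1 took 56.6% ± 1.5 in WT and 56.9% ± 0.5 in GFAP-IL6 mice, and Hbb-bs took 87.4% ± 0.6 and 87.0% ± 0.7 (n = 3 each). By amount, Hbb-bs took 87.5% ± 0.9 of the beta counts with 1 ng and 85.8% ± 1.6 with 2 ng (SD, n = 12 libraries each). The ranges overlapped, at 86.1% to 88.9% with 1 ng and 83.1% to 89.4% with 2 ng. Paired within a mouse, the share was higher with 1 ng in every mouse in set A. In set B it was higher with 1 ng in all mice except WT mouse 3, at 86.4% with 1 ng and 89.4% with 2 ng. The 12 libraries of an amount came from 6 mice and are not independent.

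The alpha genes took 38.9% ± 2.8 of the globin counts (SD, n = 6 mice), and here a single mouse stood out. GFAP-IL6 mouse 1 had an alpha share of 44.0% (Wilson 95% interval 42.8% to 45.2%), whereas the other 5 mice ran from 36.2% (35.7% to 36.8%) in GFAP-IL6 mouse 3 to 39.9% (39.1% to 40.7%) in WT mouse 1. The same mouse had the lowest Hbb-bs and Hbb-bt levels and lay above both WT mice 1 and 2 for both alpha genes. Because most 3' windows of the alpha pair are shared and only uniquely aligned reads were counted, the alpha share is a share of countable reads and not of transcripts. Intervals cover counting error only.

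**Figure D5:**
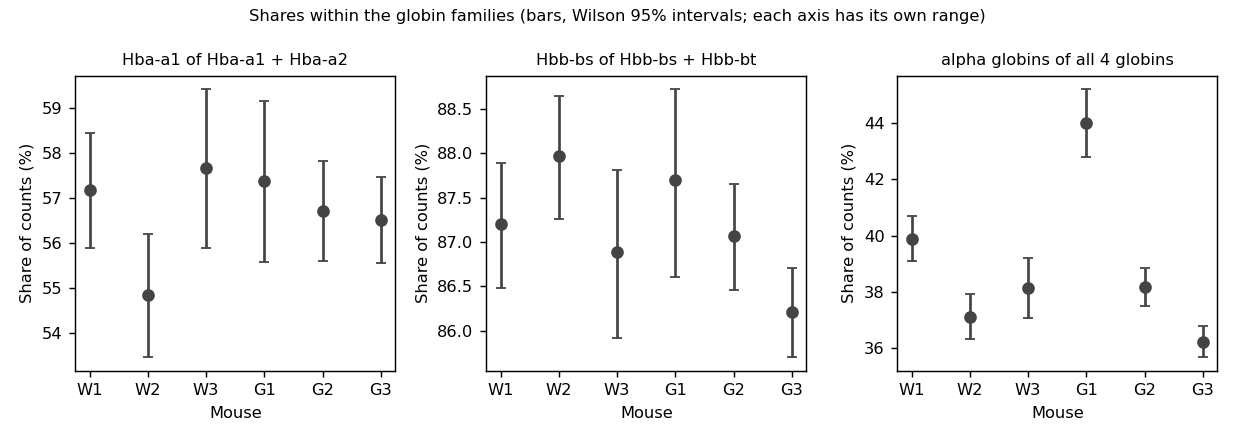
Share of counts per mouse within the alpha pair, within the beta pair and of the alpha genes among the 4 globin genes, with Wilson 95% intervals; W marks WT and G marks GFAP-IL6 mice, and the axes do not start at 0. GFAP-IL6 mouse 1 lies at 44.0% in the right panel, above the other 5 mice, which run from 36.2% to 39.9%.

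Other red cell genes were looked up from a list of 24, of which 22 were in the table. Gata1, the erythroid transcription factor gene, Rhag and Hemgn were among those with no count in any library. A count of 0 over all 24 libraries allows a level of up to 0.0266 CPM (3 counts of 112945479). Slc4a1, the band 3 anion exchanger, had 8 counts in all, and Klf1, a transcription factor of the beta globin locus, had 43. Prdx2 and Fech, which had high levels, are also known from brain cells. Of the 9 genes tested between genotypes, none was called in edgeR's test, with a median log2 difference of -0.07 against -0.01 over all genes, and Prdx2 (0.01 ± 0.08, adjusted p = 0.990) and Fech (-0.09 ± 0.08, adjusted p = 0.858) are examples. Between amounts, 3 of 8 tested genes were called, against 31.2% of all genes tested. None of the 3 was lower with 2 ng. Among them, Prdx2, a peroxiredoxin, was higher with 2 ng (log2 difference 0.22 ± 0.02), as was Tfrc, the transferrin receptor (0.17 ± 0.05, adjusted p = 0.0064). Tfrc was not called without GFAP-IL6 mouse 3 (0.15). Over the 8 tested genes, 4 had a positive and 4 a negative log2 difference, called or not, with a median of 0.03 against 0.01 over all genes.

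The list of other globin genes held embryonic genes, genes used outside red cells, and others such as Hbq1a and Hbq1b. Hbq1a had 42 counts over all libraries and Hbq1b had 10. The embryonic genes Hbb-bh1 and Hba-x and the gene Hbb-bh2 had no count, and Hbb-y, the embryonic epsilon-like gene, had 29 counts over all libraries. Cygb, which encodes cytoglobin, was at 66.8 ± 4.0 CPM in WT and 61.6 ± 1.8 CPM in GFAP-IL6 mice (SD, n = 3 each), and its log2 difference between amounts was -0.09 ± 0.05 (edgeR adjusted p = 0.131). Ngb, the neuroglobin gene, was at 3.55 ± 1.54 and 2.5 ± 0.77 CPM, and its log2 difference between amounts was 0.02 ± 0.20 (adjusted p = 0.968). Neither of these non-erythroid globin genes was called between amounts.

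The heme synthesis genes, all 8 of which were tested, had no called gene between genotypes, and their median log2 difference was 0.02. Alas1, the form of the first enzyme used outside red cells, was at 53.8 ± 4.4 CPM in WT and 59.0 ± 8.1 CPM in GFAP-IL6 mice (0.12 ± 0.11, edgeR adjusted p = 0.851), above Alas2. Between amounts, 4 were called as higher with 2 ng and 2 as lower, where 31.2% of all genes tested were called. Called or not, 6 of the 8 had a positive log2 difference, with a median of 0.11. Alas1 rose by 0.14 ± 0.05 (adjusted p = 0.0167) and Urod, a later enzyme of the path, fell by 0.15 ± 0.05 (adjusted p = 0.0090). Alas1 was not called without GFAP-IL6 mouse 2 (0.10) or GFAP-IL6 mouse 3 (0.12), and Urod was not called without GFAP-IL6 mouse 2 (-0.14). Of the genes that clear heme and hemoglobin, none of 7 tested was called between genotypes. Hmox2, the constitutive heme oxygenase, was at 158 ± 9.8 CPM in WT and 155 ± 12.4 CPM in GFAP-IL6 mice. Hmox1, the inducible form, was at 0.789 ± 0.118 and 1.16 ± 0.18 CPM.

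Markers of other blood and vessel cells were counted in the same fits, which called 1.8% of all genes tested between genotypes and 31.2% between amounts. The platelet list had 4 tested genes between genotypes and 5 between amounts, none called, and Pf4, platelet factor 4, was at 7.55 ± 0.94 CPM in WT and 6.03 ± 0.93 CPM in GFAP-IL6 mice. Of the 10 genes of the platelet list, 8 had counts, and Gp1ba and Tubb1 had none in any library. Of the neutrophil list, Csf3r, the receptor of granulocyte colony-stimulating factor, was called among 4 tested, at 1.14 ± 0.89 CPM in WT and 4.71 ± 1.6 CPM in GFAP-IL6 mice (log2 difference 1.97 ± 0.40, edgeR adjusted p = 0.0142). It was not called without WT mouse 1 (1.64) or without GFAP-IL6 mouse 3 (1.64). S100a8, an abundant neutrophil transcript, was at 1.20 ± 1.09 and 1.86 ± 1.0 CPM (adjusted p = 0.834). None of 5 tested genes of the B and T cell list was called between genotypes. Between amounts, Csf3r (0.52 ± 0.20, adjusted p = 0.0326) and Ighm, the immunoglobulin mu chain gene (0.43 ± 0.05), were the called genes of these 3 lists, and both were higher with 2 ng. Called or not, 1 of 4 tested neutrophil genes, 2 of 5 platelet genes and 4 of 5 B and T cell genes had a positive log2 difference. Csf3r was not called between amounts without GFAP-IL6 mouse 2 (0.43) or mouse 3 (0.55).

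Of the endothelial list, 3 of 10 genes were called between genotypes, against 1.8% of all genes tested. All 10 had positive log2 differences, with a median of 0.72 against -0.01 over all genes. Vwf, the von Willebrand factor gene, was at 2.10 ± 0.33 CPM in WT and 9.43 ± 1.28 CPM in GFAP-IL6 mice (log2 difference 2.22 ± 0.21, edgeR adjusted p = 1.7e-05). Flt1, a receptor of vascular endothelial growth factor, rose by 0.70 ± 0.13 (adjusted p = 0.0064), but was not called without WT mouse 2 (0.60) or GFAP-IL6 mouse 2 (0.62). Ly6c1 rose by 0.82 ± 0.17 (adjusted p = 0.0142), and was not called when any of WT mice 1 and 2 and GFAP-IL6 mice 2 and 3 was left out (0.67 to 0.83). Between amounts, where 31.2% of all genes tested were called, Itm2a (0.16 ± 0.04) and Ly6c1 (0.19 ± 0.04) were higher with 2 ng. Pecam1 was lower (-0.78 ± 0.27, adjusted p = 0.0132), and 5 of the 10 genes had a positive log2 difference. Itm2a was at -0.011 in set B alone, and Pecam1 was not called without GFAP-IL6 mouse 3 (-0.82). The summed level of the endothelial list was 219 to 223 CPM in WT mice and 262 to 344 CPM in GFAP-IL6 mice, while that of the globin genes overlapped between genotypes. Itm2a and Ly6c1 had the highest levels of the list, at means of 93.7 and 69.3 CPM in WT mice and 103 and 121 CPM in GFAP-IL6 mice. The endothelial sum therefore rests largely on these genes.

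The 5 other genes whose log2(CPM + 1) followed the summed globins most closely over the 24 libraries, of 10736 genes with a mean of at least 5 CPM, were Sncb (Pearson r = 0.968), Nrgn (0.967), Rpl31 (0.964), the 5.8S ribosomal RNA copy n-R5-8s1 (0.961) and Klc2 (0.959). Each was also lower with 2 ng, by log2 differences of -0.76 for Sncb, -0.75 for Nrgn, -0.57 for Rpl31, -1.70 for n-R5-8s1 and -0.89 for Klc2, so the points of these correlations share the step between amounts. The members themselves had r of 0.995 (Hbb-bs), 0.985 (Hba-a1), 0.985 (Hba-a2) and 0.962 (Hbb-bt) with a sum that contains them. Alas2 had an r of 0.10 with the summed globins.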

How the data were processed

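Frontal cortex RNA of 3 WT and 3 GFAP-IL6 mice was sequenced as 24 3'Pool-seq libraries. Per the study's methods, the authors trimmed polyA from reads of 70 bases, aligned them with STAR (version 2.4) to mm10 and counted uniquely aligned reads on GENCODE vM6 genes with featureCounts of Subread. The deposited values are raw counts per gene, with no normalization. The submitters' processing notes name another build, of human, which the mouse identifiers of the table go against. The members and the gene lists were chosen with earlier results of these data known.

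Libraries were summed per mouse (genotype), or per mouse and amount or set (paired comparisons, with mouse as a block), and each comparison was fitted over all genes with edgeR 4.0.16 (TMM, filterByExpr, quasi-likelihood test) in R 4.3.3, with Benjamini-Hochberg adjustment and calls at an adjusted p under 0.05. The SE of a fold change is the absolute fitted log2 coefficient, without shrinkage, divided by the square root of edgeR's F statistic. The script was tested on simulated data. DESeq2 1.42.0 Wald tests, its size factors, other filters, the block, single sets and leaving out each mouse were the alternatives. Intervals are 95% Wilson intervals, and log2 levels for spread and correlation used a pseudocount of 1. Named genes were the 5 members, the 3 genes of each list with the highest level, called genes of lists with 3 or fewer calls, and the 5 genes most correlated with the summed globins. Other list genes are given where their counts bear on a list. Some genes of the lists are not reported here. Library totals of 1524165 to 12256374 counts set the precision. Whether the mice of a genotype are littermates is not given in the sources used here. Samples from the same mouse correlated in their deviations from the group means (r from 0.23 to 0.60), which pairs the libraries of a mouse. Sequences and coordinates are from GENCODE vM21 on GRCm38.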

Additional observations from a re-analysis of the deposited data

Results flagged for a closer look

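In WT mouse 3 the log2 difference of Hbb-bt between set B and set A with 2 ng was -0.13, whereas the other 5 mice ran from 0.40 to 0.50, and the gap to the nearest of them was 0.84 of the whole range. It rests on 61 counts in the set B library and 68 in the set A library of that mouse, whose totals were 1525511 and 1524165. It was the single value set apart in this way among 36 groups of 6 paired differences, and chance sets apart about 1 in 20 groups.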

How the results depend on the processing

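The 4 hemoglobin genes kept the sign of their amount and set differences under all 14 settings of each comparison, from -1.65 to -0.997 (2 ng against 1 ng) and from 0.09 to 0.73 (set B against set A), and 4 of 5 members stayed called between amounts throughout. Between genotypes, no member was called under any setting by edgeR or DESeq2. With library totals in place of TMM the summed globin difference between amounts was -1.32, and it was -1.59 in set A alone and -1.13 in set B alone. Between sets it was 0.58 with 2 ng alone and 0.12 with 1 ng alone.

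Genes called between genotypes numbered 263. They were 462 of 20629 genes tested with no filter on low counts, and 146 to 321 with a mouse left out. In sets A and B alone they were 125 and 132 with 2 ng, and 136 and 140 with 1 ng. The mouse numbers did not pair the genotypes (correlations of deviations -0.08, -0.01 and -0.005), and with them as a block 220 genes were called. Without the mouse block, calls fell from 4452 to 1696 between amounts and from 3147 to 972 between sets, and 4 and 1 of the 5 members were called. With a log2 fold change above 1 also asked for, 115 genes (4 members) and 26 genes (no member) were called. Calls numbered 2580 between amounts in set B alone and 689 between sets with 1 ng alone, and 3669 to 4358 and 2538 to 3153 with a mouse left out. DESeq2 called 3057 between amounts and 2454 between sets. In set B alone, Snap25 (-0.027) and Itm2a (-0.011) lay on the other side of 0 between amounts from the value over both sets. Alas2 rests on 4 to 73 counts per library, which limits its precision, and the causes were not tested.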
